A study of Drosophila melanogaster with 21 samples.

Results

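The genes described here are 10 regulators of chromatin and transcription in Drosophila melanogaster: Smr, osa, kis, brm, trx, ash1, Nipped-A, skd, kto and dom. They were selected by a list of gene symbols, drawn up with results of the RNA immunoprecipitation comparison in view, in which Smr fell among the largest decreases. All 10 have a row among the 17869 genes of the total RNA table, and 8 have a row among the 2168 genes of the immunoprecipitation table, where ash1 and Nipped-A have none. All 10 also passed the filter on low counts, which left 10238 features to test. The group is one of function and not of a single complex, since skd and kto encode Mediator subunits and the other 8 encode chromatin proteins.

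The study concerned topoisomerase 3 beta (Top3beta in FlyBase), an enzyme that passes strands of RNA as well as DNA through one another, and its RNA targets in embryos. Libraries of total RNA came from whole embryos labelled wild-type, Top3b26, Top3bY332F and Top3b[delta]RGG, with 3 replicates for each of these 4 genotypes; they are called wild type, Top3b26, Y332F and delRGG below. RNA immunoprecipitation and sequencing (RIP), which recovers the RNA bound to a tagged protein, was done on 6 samples of Top3b::eGFP embryos and 3 samples of Top3b-Y332F::eGFP embryos, called Top3b-eGFP and Top3b-Y332F-eGFP below. Top3b26 is a mutant allele of the gene, Y332F exchanges the catalytic tyrosine for phenylalanine, RGG names an RNA-binding motif, and eGFP is a fluorescent protein used as a tag. The labels give no embryo age, no number of embryos per sample, and no statement that replicates came from separate collections, so p-values measure the spread between these samples only.

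These proteins open, close or mark chromatin, or link it to RNA polymerase II. Smr (SMRTER) is a corepressor that bridges the ecdysone receptor and other factors to histone deacetylases. Brm is the ATPase of the BAP and PBAP remodelling complexes, Osa is the subunit particular to BAP, and Kis is a remodeller of the CHD family. Trx and Ash1 are histone methyltransferases of the trithorax group, which keeps genes active against Polycomb repression. Dom is the ATPase of the Tip60 complex, and Nipped-A is the large scaffold of both Tip60 and the SAGA acetyltransferase complex. Skd and Kto are the Med13 and Med12 subunits of the kinase module of Mediator. Embryos receive much of this RNA from the mother and later make their own.

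Total counts per library ran from 22400100 to 31125600, and replicates differed by more than sampling noise, with a chi-square per degree of freedom of 11.5 to 115. The 10 regulators together took 0.711% to 1.19% of the counts of a library. Wild-type embryos had 114 ± 17.0 CPM of Top3beta, the targeted gene, and Top3b26 embryos 22.1 ± 1.11 (SD, n = 3 each), lower by -2.37 on the log2 scale (edgeR adjusted p 1.12e-06). Y332F embryos had 125 ± 19.1 CPM and delRGG embryos 134 ± 8.35 (SD, n = 3 each), and neither difference was called. CPM are counts scaled to library size with TMM factors, and a gene was called at an edgeR adjusted p under 0.05.

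Markers of late embryonic tissues differed between the libraries along with genotype. The mean log2 CPM of 31 markers of muscle, cuticle, trachea and neurons was 5.24, 5.65 and 6.85 in wild-type replicates 1 to 3, and 2.87, 1.62 and 1.75 in those of Top3b26. It was 3.26, 2.65 and 3.48 in Y332F and 5.81, 4.34 and 2.63 in delRGG. Of 12 muscle markers, 11 were called lower in Top3b26 and 11 in Y332F. Their summed level ran from 3302 to 9705 CPM in wild type, 338 to 625 in Top3b26, 561 to 907 in Y332F and 519 to 4972 in delRGG. Of 9 cuticle and tracheal markers all 9 were called lower in both Top3b26 and Y332F, with sums of 217 to 702 CPM in wild type, 16.6 to 46.3 in Top3b26, 32.7 to 62.2 in Y332F and 17.4 to 284 in delRGG. Of 10 neuronal markers 10 were called lower in Top3b26 and 9 in Y332F, with sums of 269 to 522, 76.1 to 110.3, 103 to 126 and 112 to 304 CPM in the same order. In the other direction, 10 of 12 maternal markers were called higher in Top3b26 and 4 in Y332F, with sums of 8057 to 8806, 10317 to 11282, 9905 to 10645 and 8829 to 10155 CPM. Of 13 segmentation genes, 2 were called lower in Top3b26 and 1 higher in Y332F, with sums of 210 to 317 CPM over all libraries, and 3 yolk protein genes of the adult female summed to 0.19 to 33.5 CPM. No marker was at 0 in all libraries of a genotype. A fit with the late marker score is given beside each call. The score of every Top3b26 and Y332F library lay below that of every wild-type library, so this fit cannot separate the markers from genotype. With the score, 227 of all features were called in Top3b26 and 277 in Y332F, against 5849 and 4449 without it. The part of the marker differences in the results on the regulators was not otherwise tested. The wild-type libraries carry one letter in their library codes and all mutants another, and if that letter marks a library set it cannot be told apart from genotype. In whole embryos, fewer cells of a type and less RNA per cell cannot be told apart.

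In total RNA, most of the regulators lay slightly above wild type in each mutant, and few of them passed the test. Of the 10 genes, 9 had a log2 fold change above 0 in Top3b26, 9 in Y332F and 7 in delRGG, with Nipped-A as the one negative value in the first 2. The median over the 10 was 0.24 in each of the 3 mutants, against -0.04 over all tested features in each. In Top3b26, 2 regulators were called higher and 1 lower, where 23.5% of all features were called higher and 33.7% lower. In Y332F, 3 were called higher and 1 lower, where the shares of all features were 15.3% and 28.2%. In delRGG none of the 10 was called, where 5.87% of all features were; 2 of them, Smr and skd, had an unadjusted p under 0.05, and none was called with DESeq2, which called 3 in Top3b26 and 5 in Y332F. These shares of all features are those of the edgeR test, and none is given for DESeq2. Against them, the counts of called regulators are no result about the group. The 3 comparisons share the wild-type samples.

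**Figure D1:**
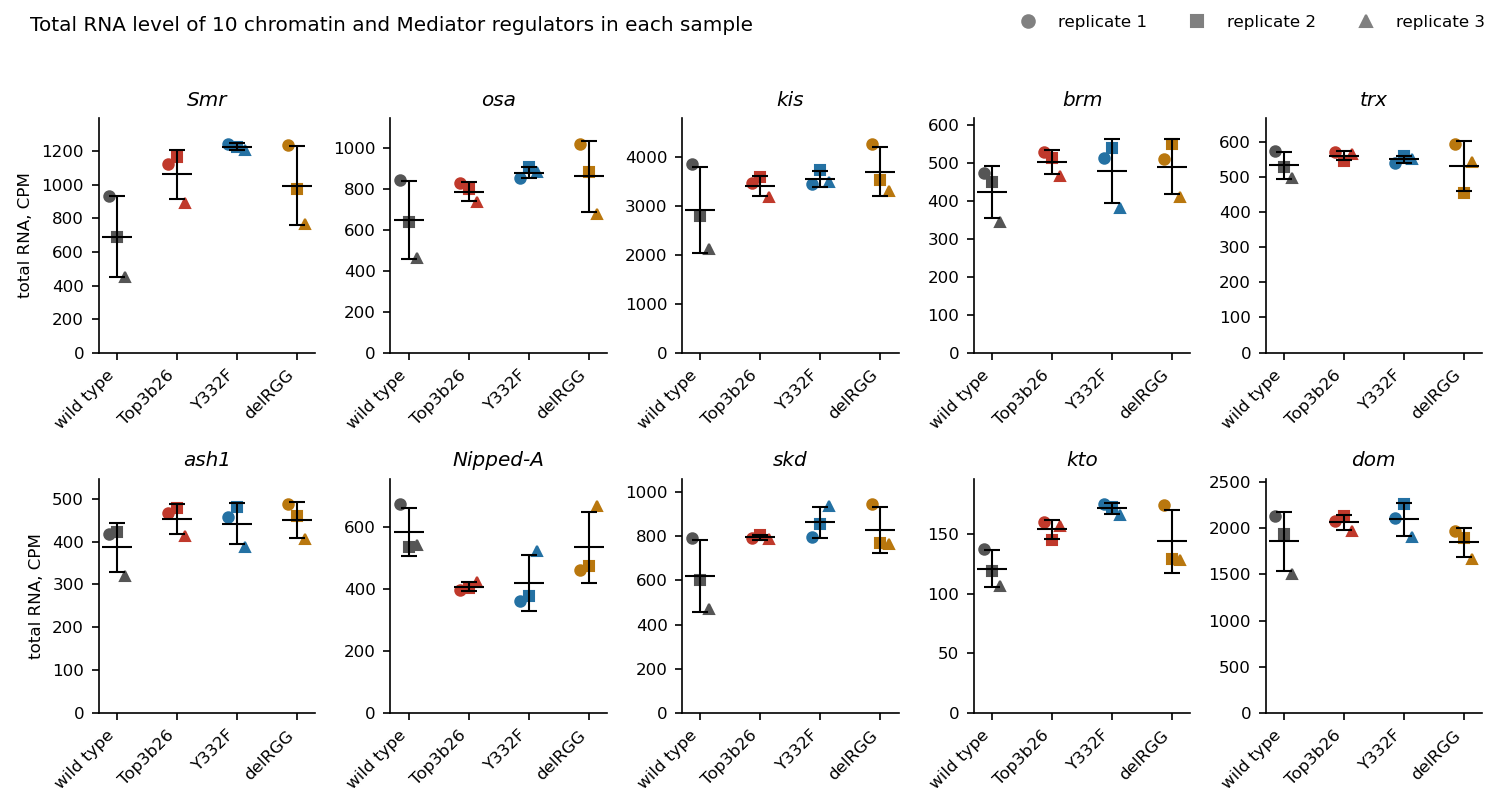
Total RNA level of each regulator in CPM (vertical axis from 0) in every sample of the 4 genotypes, with symbols for replicates 1 to 3, the mean as a wide bar and the SD as whiskers. Wild-type replicate 3 is the lowest wild-type point in 9 of the 10 genes, Nipped-A is the gene with lower points in Top3b26 and Y332F, and Smr has its narrowest spread in Y332F.

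Smr, the corepressor, stood at 932, 686 and 452 CPM in wild-type replicates 1 to 3. It reached 1126, 1167 and 894 CPM in Top3b26 and 1246, 1228 and 1208 CPM in Y332F. In delRGG it was at 1238, 976 and 768 CPM. Every Y332F sample lay above every wild-type sample, while the lowest Top3b26 and delRGG samples lay below wild-type replicate 1. The log2 fold change was 0.62 in Top3b26 (SE 0.24, edgeR adjusted p 0.0415) and 0.83 in Y332F (SE 0.24, edgeR adjusted p 0.0187), which is 1.54-fold and 1.78-fold. In delRGG it was 0.53 (SE 0.24, edgeR adjusted p 0.222), not called. With the late marker score in the fit the values were 0.79 and 0.95 for Top3b26 and Y332F, with SE of 0.44 and 0.35 and edgeR adjusted p of 0.429 and 0.204, so neither call remained. The Top3b26 call held in 4 of 12 fits that each left out one library. It was lost without wild-type replicates 2 or 3 (edgeR adjusted p 0.0541 and 0.124), Top3b26 replicates 1, 2 or 3 (0.121, 0.12 and 0.0513), Y332F replicates 1 or 2 (0.0517 and 0.0645) or delRGG replicate 2 (0.0501), and also with total counts in place of TMM (0.0837), a mean of at least 50 counts (0.108) and the compared groups alone (0.141). For Y332F the call held in 9 of 12 such fits, and was lost without wild-type replicate 3 (0.0557), Y332F replicate 1 (0.0524) or Y332F replicate 2 (0.0538).

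The Mediator kinase module genes skd and kto both lay higher in Y332F. Skd (Med13), which docks the module onto core Mediator in yeast and mammals, had wild-type values of 793, 604 and 469 CPM, Top3b26 values of 791, 805 and 787, Y332F values of 796, 854 and 938 and delRGG values of 947, 768 and 765. Every Y332F value lies above the highest wild-type value by a narrow margin, and the Top3b26 and delRGG ranges overlap that of wild type. The log2 fold change in Y332F was 0.47 (SE 0.16, edgeR adjusted p 0.0358), and the values of 0.35 in Top3b26 and 0.41 in delRGG were not called (edgeR adjusted p 0.0811 and 0.177). The Y332F call held in 7 of 12 fits that left out one library. It was lost without wild-type replicate 2 (edgeR adjusted p 0.0593) or replicate 3 (0.112), and without Y332F replicate 1 (0.0578), 2 (0.0739) or 3 (0.0877). It also ended with total counts in place of TMM (edgeR adjusted p 0.0762), a mean of at least 50 counts (0.0794) and the compared groups alone (0.0866). With the late marker score it was 0.45 (SE 0.25, edgeR adjusted p 0.402).

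Kto (Med12), which activates the kinase of the module in mammals, had the call that held in the largest number of fits. Its wild-type samples were at 137, 119 and 107 CPM, with Top3b26 at 161, 145 and 157, Y332F at 176, 173 and 166, and delRGG at 175, 129 and 129. All Top3b26 and Y332F samples lay above all wild-type samples, and delRGG replicates 2 and 3 lay within the wild-type range. The log2 fold change was 0.35 in Top3b26 (SE 0.12, edgeR adjusted p 0.0297), 0.51 in Y332F (SE 0.12, edgeR adjusted p 0.0117) and 0.25 in delRGG (SE 0.12, edgeR adjusted p 0.245). The Y332F difference was called in all 12 fits that left out one library, with edgeR adjusted p from 0.00313 to 0.046. It ended in the fit with the late marker score, at 0.68 (SE 0.18, edgeR adjusted p 0.0795), and under a 2-fold minimum, which it does not reach. In Top3b26 the call was lost without wild-type replicate 3 (edgeR adjusted p 0.111), Top3b26 replicate 1 (0.0991) or Top3b26 replicate 3 (0.0778), and with total counts in place of TMM (0.109), a mean of at least 50 counts (0.146) or the compared groups alone (0.098). With the late marker score it was 0.58 (SE 0.22, edgeR adjusted p 0.24).

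Nipped-A, the Tip60 and SAGA scaffold, was the one regulator called lower. Its wild-type samples were at 674, 535 and 541 CPM, Top3b26 at 395, 402 and 422, and Y332F at 359.5, 376 and 522. For delRGG they were at 461, 474 and 666 CPM. The wild-type range did not overlap those of Top3b26 and Y332F, and Y332F replicate 3 came close to it. The log2 fold change was -0.52 in Top3b26 (SE 0.17, edgeR adjusted p 0.0222) and -0.48 in Y332F (SE 0.17, edgeR adjusted p 0.0413), against -0.13 in delRGG (SE 0.17, edgeR adjusted p 0.633). With the late marker score these became -0.99 (SE 0.28, edgeR adjusted p 0.112), -0.81 (SE 0.23, edgeR adjusted p 0.0909) and -0.34 (SE 0.18, edgeR adjusted p 0.443). The Top3b26 call held in 7 of 12 fits that left out one library, and was lost without wild-type replicate 1 (edgeR adjusted p 0.0895) or 2 (0.0527) or without Top3b26 replicate 1 (0.0773), 2 (0.095) or 3 (0.0676). The Y332F call held in 4 of 12. It was lost without any one wild-type replicate (edgeR adjusted p 0.127, 0.0692 and 0.0669 in order), any one Top3b26 replicate (0.1, 0.0969 and 0.101), or Y332F replicates 1 (0.15) or 2 (0.235), and also with no filter on low counts (0.0955) or the compared groups alone (0.0918). Nipped-A carries the widest span of the 10 genes, introns included, and which part of it the counts cover was not analysed here.

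**Figure D2:**
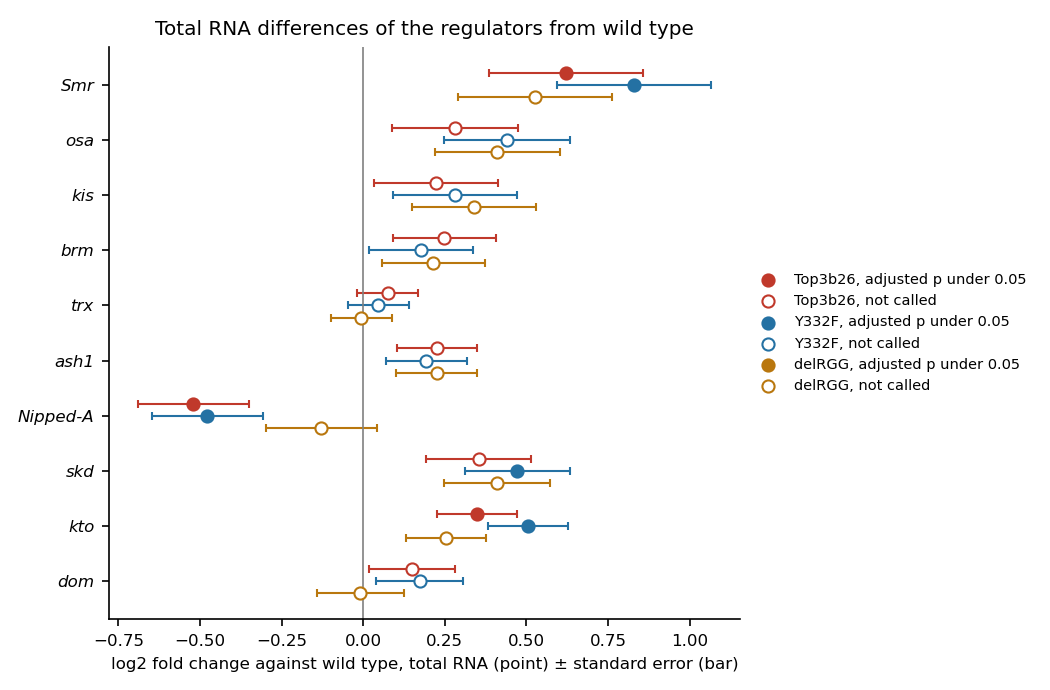
Log2 fold change of each regulator against wild type in total RNA (horizontal axis), with a point for each mutant, whiskers of 1 standard error, and filled points where the edgeR adjusted p was under 0.05. Filled points occur for Smr, Nipped-A and kto in Top3b26 and for Smr, Nipped-A, skd and kto in Y332F, and delRGG has none.

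The remaining 6 regulators were not called in any mutant by the edgeR fit with genotype alone over all 12 samples. With a replicate block added, brm and ash1 were called in Top3b26 (edgeR adjusted p 0.0165 and 0.011). In Y332F that fit called osa and ash1 (edgeR adjusted p 0.0301 and 0.0296). For osa, the BAP subunit, wild type stood at 842, 637 and 465 CPM, Top3b26 at 826, 799.8 and 735, Y332F at 852, 905 and 880.2, and delRGG at 1022, 883 and 678. Its Y332F samples all lay above wild type, by a log2 fold change of 0.44 that did not pass (SE 0.19, edgeR adjusted p 0.0828), while DESeq2 did call it there (adjusted p 0.0369). The CHD remodeller kis had log2 fold changes of 0.22, 0.28 and 0.34 in Top3b26, Y332F and delRGG, with a wild-type range of 2118 to 3859 CPM that held every Top3b26 and Y332F sample. Brm, the BAP ATPase, had 0.25, 0.18 and 0.21 in the same order, and ash1, the H3K36 methyltransferase, had 0.23, 0.19 and 0.22. For dom, the Tip60 ATPase, the values were 0.15, 0.17 and -0.01. Trx, an H3K4 methyltransferase, had the values nearest to 0, at 0.07, 0.05 and -0.01, each with an SE of 0.09, and wild-type samples from 498 to 572 CPM. With genotype alone, the lowest edgeR adjusted p among kis, brm, ash1, dom and trx was 0.137, for ash1 in Top3b26.

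The spread within wild type runs through nearly the whole group. Wild-type replicate 1 had the highest wild-type level for 9 of the 10 genes, ash1 being the exception, where 22.7% of all tested features were highest in it. Wild-type replicate 3 had the lowest level for 9 of the 10, with Nipped-A as the exception, where 31.5% of all features were lowest in it. In delRGG, replicate 1 was highest for 8 of the 10 genes (38% of all features) and replicate 3 lowest for 8 (38.6% of all features). Wild-type replicate 3 also had the highest late marker score of all 12 libraries, whereas delRGG replicate 3 had the lowest of its genotype. Without wild-type replicate 1, osa, kis and skd became called in Top3b26 (edgeR adjusted p 0.0273, 0.0275 and 0.00648), osa and kis in Y332F (0.0174 and 0.0277) and skd in delRGG (0.0293), while Nipped-A ceased to be called. Without wild-type replicate 2 ash1 was called in Top3b26 (edgeR adjusted p 0.0448), and without delRGG replicate 3 skd was called in Top3b26 (0.0398) and osa in Y332F (0.0397).

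Tested directly against each other, the mutants gave no call for any of the 10 regulators. For Y332F against Top3b26, where 7.27% of all features were called, the log2 differences ran from -0.07 to 0.21, no unadjusted p was under 0.05 and the lowest edgeR adjusted p was 0.552. For delRGG against Top3b26, where 28.3% of all features were called, they ran from -0.16 to 0.39, and Nipped-A alone had an unadjusted p under 0.05 (0.0409, edgeR adjusted p 0.097). The delRGG samples all lay above the Top3b26 samples for Nipped-A and all below them for dom. For Smr, osa and kto, all Y332F samples lay above all Top3b26 samples. The share of all features without overlap was not computed for these comparisons. For delRGG against Y332F, where 2.46% of all features were called, the values ran from -0.30 for Smr to 0.35 for Nipped-A, no unadjusted p was under 0.05 and the lowest edgeR adjusted p was 0.252. DESeq2 called none of the 10 in these 3 comparisons. The mutants' calls against wild type differ in number, and these tests do not show that the mutants differ in the regulators.

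Genes that work in the same complexes were counted from lists that hold 116 partner genes besides the 10 regulators. Of the 112 partners tested, 47 were called higher and 5 lower in Top3b26, 35 higher and 1 lower in Y332F, and 4 higher and 1 lower in delRGG. The shares of all features are 23.5% higher and 33.7% lower in Top3b26, 15.3% and 28.2% in Y332F, and 5.87% in both directions in delRGG, and each list below is to be read against them. Their median log2 fold change was 0.25, 0.20 and 0.16 in that order. These lists share regulators with the group of 10, and the counts that follow include them.

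Among 11 genes of the SMRTER corepressor list, Top3b26 had 6 called higher and 1 called lower, Y332F had 5 and 1, and delRGG had 1 in all. The receptor pair that Smr binds split: usp, the partner of the ecdysone receptor, rose from 156 ± 14.3 CPM to 222 ± 3.69 in Top3b26 and 216 ± 10.8 in Y332F (SD, n = 3 each; edgeR adjusted p 0.00124 and 0.00344). EcR, the hormone-binding partner, fell by 0.20 on the log2 scale in both (edgeR adjusted p 0.0133 and 0.0194), from 208 ± 11.7 CPM to 181 ± 3.36 and 181 ± 7.61. In delRGG usp was also called (log2 0.33, edgeR adjusted p 0.0387), and EcR was not (-0.10, edgeR adjusted p 0.297).

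Of the 10 BAP and PBAP remodeller genes, 8 were called higher in Top3b26 and 6 in Y332F, none was called lower, and none was called in delRGG. The exceptions in Top3b26 were the regulators osa and brm themselves. Bap111, the HMG-box subunit, had 148 ± 18.5 CPM in wild type against 221 ± 24.4 in Top3b26 (edgeR adjusted p 0.00479), and its Y332F log2 fold change was -0.02 (edgeR adjusted p 0.933). The PBAP subunit e(y)3 was higher in both, at 0.52 and 0.64 (edgeR adjusted p 0.0222 and 0.0162).

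In the 16-gene COMPASS and trithorax list, Top3b26 had 3 called higher and 2 called lower, and Y332F had 5 and 0. Cfp1, which targets the Set1 methyltransferase to CpG-rich DNA in mammals, rose by a log2 fold change of 0.70 in Top3b26 and 0.45 in Y332F (edgeR adjusted p 0.003 and 0.0251), and trr, an H3K4 methyltransferase related to trx, by 0.51 and 0.45 (edgeR adjusted p 0.0121 and 0.0281). Pa1, a subunit of the Trr complex, went in different directions: it fell from 129 ± 15.3 CPM in wild type to 83.3 ± 4.28 in Top3b26 and 75.9 ± 14.8 in delRGG and rose to 168 ± 8.58 in Y332F (SD, n = 3 each; edgeR adjusted p 0.00308, 0.0054 and 0.0304).

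Of 16 Tip60 genes, Top3b26 had 7 called higher and 1 called lower, and Y332F had 4 and 1. Of 15 SAGA genes the counts were 9 and 1 in Top3b26 and 5 and 1 in Y332F. The 1 lower gene of both lists is Nipped-A, which belongs to each. The largest rises were those of the Tip60 subunit MrgBP (log2 fold change 0.64, edgeR adjusted p 0.00246) and of Spt3 (0.97, edgeR adjusted p 0.0015), which in yeast helps SAGA to deliver the TATA-binding protein. Spt3 had 9.17 ± 0.444 CPM in wild type, and Top3b26 had 17.9 ± 0.906, Y332F 14.9 ± 0.976 and delRGG 14.4 ± 2.58 (SD, n = 3 each), and MrgBP and Spt3 were each called in all 3 mutants.

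Of 24 core Mediator genes, 3 rose and 1 fell in Top3b26, 5 rose in Y332F and none was called in delRGG. MED30 rose (log2 fold change 0.72, edgeR adjusted p 0.00348) and MED20 fell by 0.52 (edgeR adjusted p 0.0131) in Top3b26. In the 4-gene kinase module, Cdk8, its kinase, was called beside kto in Top3b26 (0.43, edgeR adjusted p 0.0205) and was at 0.31 in Y332F (edgeR adjusted p 0.092). Of 10 other remodellers, kis among them, 2 were called higher in each of Top3b26 and Y332F; Chd1, a relative of kis, was at 0.36 and 0.40 (edgeR adjusted p 0.0392 and 0.0317). Among 18 Polycomb-group genes, the functional opponents of trx, ash1, brm and osa, Top3b26 had 10 called higher and 1 called lower, and Y332F had 5 called higher. Sfmbt, which joins the DNA-binding protein Pho, rose by 0.63 (edgeR adjusted p 0.000661), and ph-p fell by 1.06 (edgeR adjusted p 0.00261) in Top3b26. The late marker differences above run alongside all of these counts, and their part in them was not tested for the partner genes.

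In the RIP, every one of the 8 regulators with a row had a lower mean with the Y332F form than with Top3b-eGFP. This contrast was in view when the genes were listed, so its values are a description and carry no test. Values are the authors' normalized signal, summed over the transcripts of a gene and scaled to the median ratio of each sample, and differences are on the log2(value + 1) scale. The 8 genes ran from -1.84 for Smr to -0.71 for brm, with a median of -1.06, where the median of all 2168 genes was 0.01 and 49.3% of them were below 0. Of the 8, 5 had every Y332F sample below every Top3b-eGFP sample, as did 16.7% of all genes. No input or mock library was analysed here, so values were compared between the 2 fusions only.

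**Figure D3:**
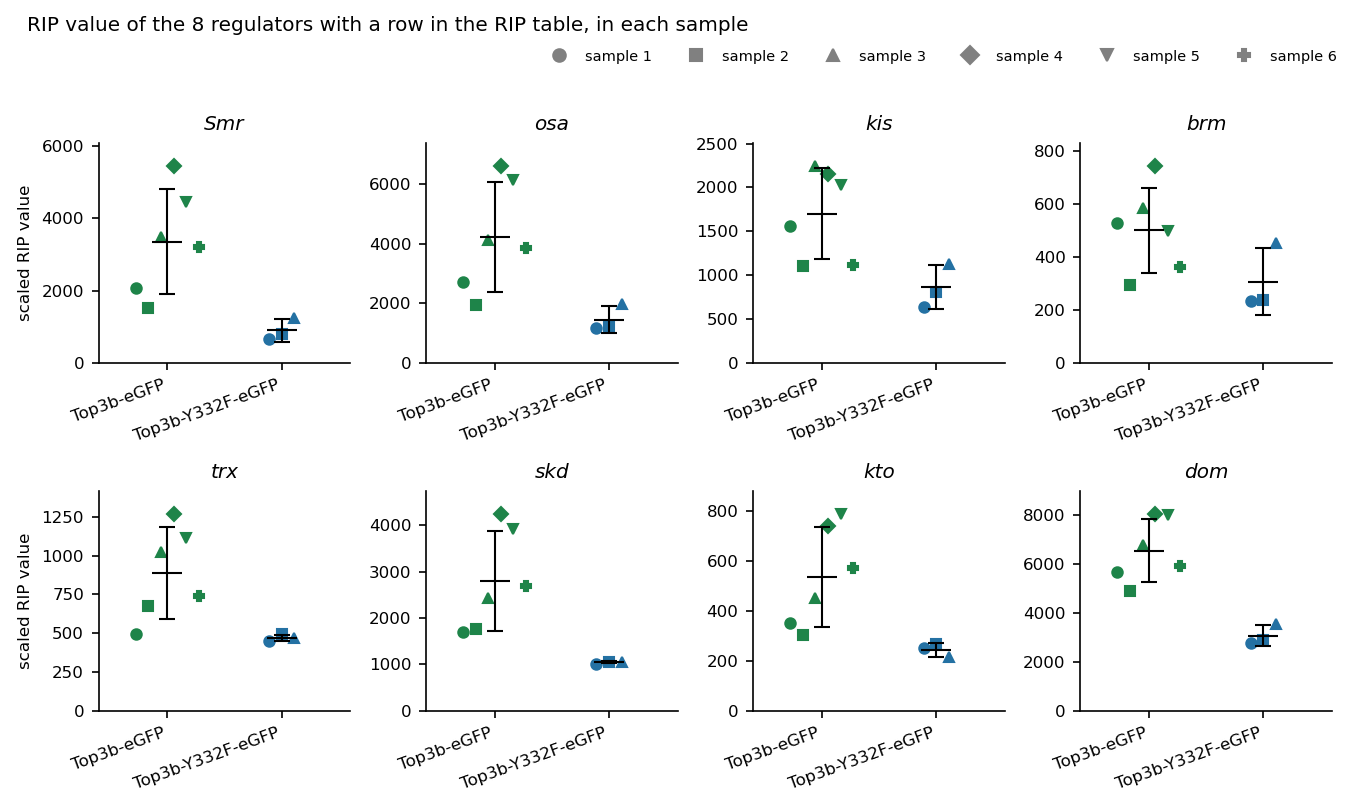
Scaled RIP value (vertical axis from 0) of the 8 regulators in each of the 6 Top3b-eGFP and 3 Top3b-Y332F-eGFP samples, with a symbol for each sample number, the mean as a wide bar and the SD as whiskers. The Y332F points of Smr, trx, skd, kto and dom lie below all Top3b-eGFP points, those of osa, kis and brm overlap them, and sample 4 is the top Top3b-eGFP point in 6 of the 8 genes.

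Smr had the most negative difference of the group, at rank 4 of the 2168 genes. Its scaled values in Top3b-eGFP samples 1 to 6 were 2066, 1512, 3478, 5447, 4460.2 and 3193, and those of the Y332F form were 649.6, 784 and 1248. The highest Y332F sample lay below the lowest Top3b-eGFP sample, sample 2. The means were 3359 ± 1463 (SD, n = 6) and 894 ± 314 (SD, n = 3), a log2 difference of -1.84 (SE 0.35), or 3.57-fold. In total RNA the same gene was higher in Y332F embryos than in wild type, as given above; the RIP samples are other embryos with tagged protein, and the 2 tables were normalized separately.

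Osa was at rank 16 of these differences. Its Top3b-eGFP samples were at 2713, 1934, 4131, 6612, 6153 and 3876, and its Y332F samples at 1170.3, 1202 and 1969. The highest Y332F sample exceeded Top3b-eGFP sample 2, so the groups overlap by this pair, and the log2 difference was -1.47 (SE 0.34). The other BAP member, brm, had the smallest difference of the 8, from 501 ± 161 (SD, n = 6) to 307 ± 125 (SD, n = 3). Its Y332F sample 3, at 451, lay inside the Top3b-eGFP range of 293 to 742.

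Both Mediator kinase module genes were lower without overlap. Skd went from 1695, 1753, 2432, 4236, 3930 and 2701 to 1019, 1057 and 1059, a log2 difference of -1.33 (SE 0.27). Kto went from 352, 305, 454, 742, 788 and 571 to 253, 268 and 214, a difference of -1.04 (SE 0.27). The 3 Y332F samples of skd differ by 0.06 on the log2 scale, while its Top3b-eGFP samples span 1.32.

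Dom had the highest RIP values of the group and the tightest Top3b-eGFP samples, at 5669, 4891, 6803, 8042, 8022 and 5923 against 2779.7, 2887 and 3555 with the Y332F form. Its log2 difference was -1.08 (SE 0.20), without overlap. Trx went from 496, 676, 1025, 1266, 1116 and 742 to 451, 492 and 467, a difference of -0.84 (SE 0.25), and only Top3b-eGFP sample 1 came near the Y332F samples. Kis went from 1556, 1105, 2242, 2157, 2030.2 and 1111 to 634, 810.5 and 1129, a difference of -0.97 (SE 0.26), with Y332F sample 3 above Top3b-eGFP samples 2 and 6.

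The Top3b-eGFP samples themselves differ in these genes in one direction. Samples 4 to 6 lay above samples 1 to 3 by a median log2 difference of 0.71 over the 8 regulators, against 0.01 over all genes. Sample 4 was the highest of the 6 for 6 regulators, sample 2 was the lowest for 6 and sample 1 for 2. Against samples 1 to 3 alone the Y332F differences were -1.36 for Smr, -0.99 for osa, -0.89 for skd and -0.58 for both trx and kto. Against samples 4 to 6 alone they were -2.31, -1.94, -1.77, -1.11 and -1.505 in that order. The direction held against both sets, and the size of the difference of Smr, osa, skd, trx and kto depends on which Top3b-eGFP samples are used. Top3beta RNA itself ran from 5426 to 7510 in samples 1 to 3, from 9383 to 10921 in samples 4 to 6 and from 6342 to 7392 in the Y332F samples. The labels do not say what sets samples 4 to 6 apart, and the part of this split in the differences was not tested.

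The lower values were spread over transcripts. The 8 regulators have 21 of the 4928 transcripts in the table, from 2 per gene to the 4 of kis and skd. All 21 had a lower mean log2 value with the Y332F form. Their genes were listed with this contrast in view, so that count is a description only. The share of all transcripts that were lower was not computed. Of the 21, 9 had every Y332F sample below every Top3b-eGFP sample, as did 8.73% of all transcripts. The 18 that were never at 0 ran from -1.85 to -0.63. Another 3 are listed at 0 in 1 sample each. They are FBtr0078144 of kis (Top3b-eGFP sample 3), FBtr0075523 of brm (Y332F sample 1) and FBtr0304716 of kto (Y332F sample 3). An exact 0 may be a failed estimate or a low level. In the other Y332F samples the brm transcript was at 68.9 and 110 and the kto transcript at 38.6 and 63.1. The kis transcript ran from 110 to 363 in the other Top3b-eGFP samples.

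Within a gene, the split between transcripts was mostly alike in both forms. Smr FBtr0333765 made up 67.5 ± 11.01% of the gene's RIP value with Top3b-eGFP (SD, n = 6) and 66.4 ± 7.85% with the Y332F form (SD, n = 3). Osa FBtr0089583 made up 72.0 ± 3.91% and 72.8 ± 3.75%. Dom was the one gene with shares that did not overlap between the groups: FBtr0071604 was at 53.7 ± 4.46% and 61.2 ± 2.06%, and FBtr0071603 at 46.3 ± 4.46% and 38.8 ± 2.06% (SD, n = 6 and n = 3). Its gap between groups is narrow, with the highest Top3b-eGFP share of FBtr0071604 at 58.8% and the lowest Y332F share at 58.9%. Over the whole table, 1.97% of transcripts had shares that did not overlap. The 2 dom shares are one measurement, since they add up to the whole.

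**Figure D4:**
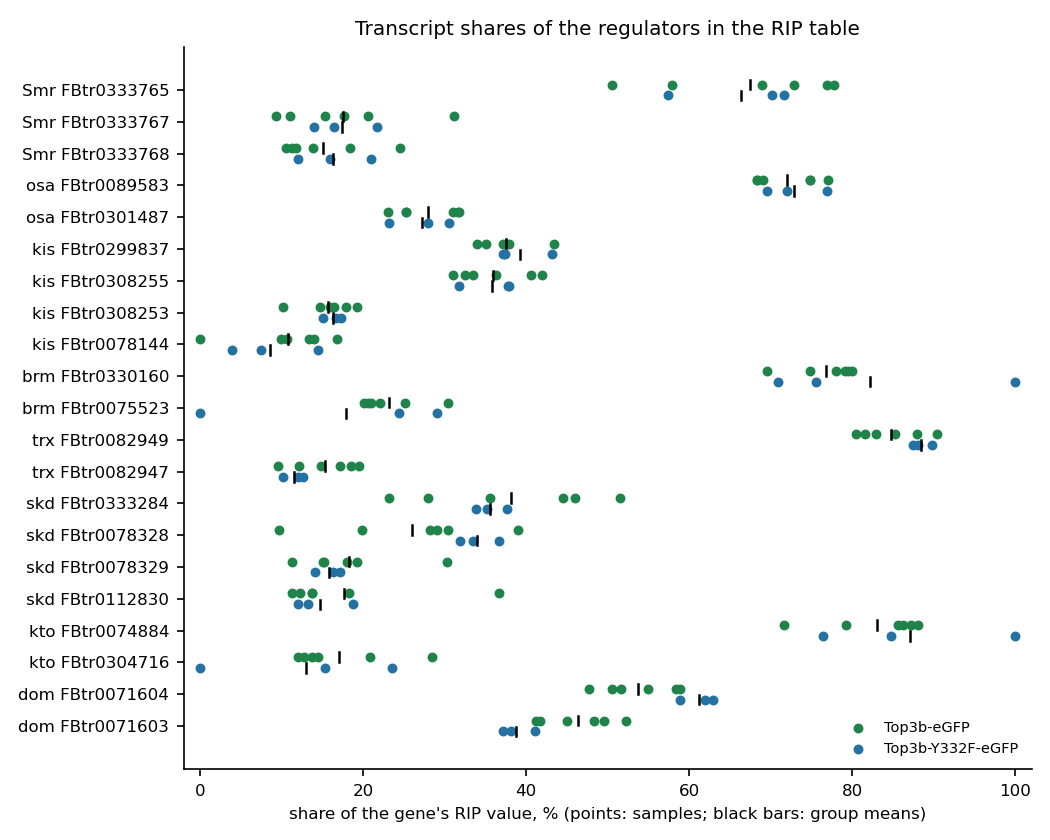
Share of each transcript in its gene's RIP value (horizontal axis, percent), with a point for every sample of Top3b-eGFP and Top3b-Y332F-eGFP and a black bar at each group mean. The ranges of both groups overlap for 19 of the 21 transcripts, and the pair of dom transcripts is the exception.

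The regulators are long genes in the main. Their span, introns included, had a median of 27.0 kb, against 2.84 kb for the tested genes of the total RNA table and 4.999 kb for the RIP genes (RefSeq, assembly Release 6 plus ISO1 MT). The order ran from Nipped-A (73.1 kb) and Smr (58.4 kb) through kis (40.1 kb), skd (34.6 kb), osa (30.5 kb), trx (23.5 kb), dom (18.4 kb) and brm (12.8 kb) to kto (8.33 kb) and ash1 (7.98 kb). Ash1 and kto lie at the 77.9th and 78.7th percentile of the tested genes by span, and the other regulators lie higher. Span counts introns, so it does not give the size of the mature transcript or of the protein, and neither was compared here. In the RIP, the tenth of genes with the longest span (217 genes, at least 27.3 kb) had a median difference of -0.35, and the 4 regulators among them, Smr, kis, skd and osa, ran from -1.84 to -0.97. Kto, at 8.33 kb, had a difference of -1.04, and dom, at 18.4 kb, one of -1.08. The median over all RIP genes was 0.01, and no trend of the difference with span was computed over the whole table. The part of span in the differences of these genes was not tested.

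**Figure D5:**
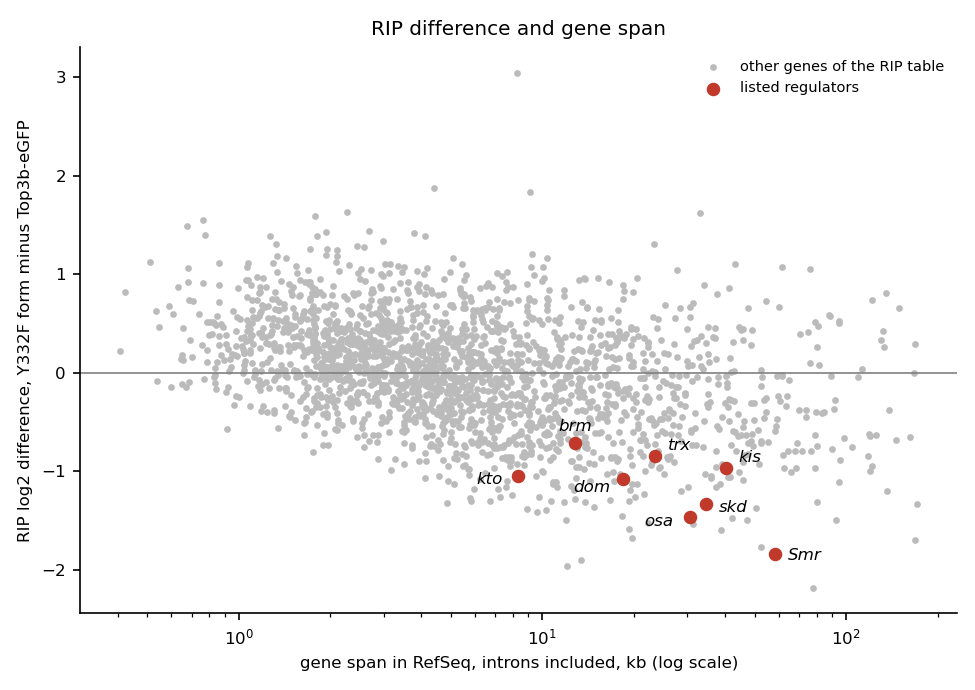
RIP log2 difference, Y332F form minus Top3b-eGFP (vertical axis), against gene span in kb on a log scale (horizontal axis), for the RIP genes with a RefSeq span, with the 8 regulators in red. Smr sits lowest of the 8 at -1.84 and 58.4 kb, kto is the shortest at 8.33 kb, and all 8 lie below the 0 line.

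Recovery in the RIP was set against abundance by rank, since the tables have separate scales. The total RNA values are not per length, and whether the RIP values are is not known. Over the 2141 genes in both, a gene's percentile in Top3b-eGFP was compared with its own percentile in wild-type total RNA. Smr stood at 94.8 in RIP and 95.3 in total RNA, skd at 93.6 and 94.3, dom at 98.6 and 99.5, and osa, the one that ranked higher in RIP, at 96.3 and 94.6. Kis (86.6 and 99.9), trx (68.9 and 92.7) and brm (47.5 and 88.9) ranked lower in RIP than in total RNA, and kto was at 49.1 and 54.0. RefSeq lists 6 transcripts for kis, 5 for trx and 6 for brm, and the RIP values sum 4, 2 and 2. Osa has 2 of 6 in the RIP, Smr 3 of 4 and dom 2 of 4, while skd and kto have as many as RefSeq. A RIP rank may thus cover part of a gene where the total RNA rank covers the whole, and this was not tested. The median gap over the 8 was -2.94 percentile points, from -15.4 to 0.817 with single Top3b-eGFP samples. With the Y332F form the RIP percentiles were 71.7 for Smr, 79.1 for skd, 95.7 for dom and 23.6 for kto.

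Genes were also ranked by how closely their profile over samples followed that of Smr, by the root mean square of the log2 gap after each gene was centred. In the RIP (9 samples, 2167 other genes), the nearest were rg at 0.137, LRP1 at 0.175, osa at 0.194, beta-Spec at 0.213 and fry at 0.222. Rg is an anchor protein for protein kinase A, LRP1 a receptor of the LDL receptor family and beta-Spec a chain of the membrane skeleton. Of the other regulators, skd was at rank 19 in this order and brm came last of the 8, at rank 168. The RIP profile includes the contrast in view when the regulators were listed, so their ranks in it are a description only. In total RNA (12 samples, 10000 other genes), the nearest were nocte at 0.126, e(y)3 at 0.128, CG11122 at 0.129, Rbcn-3A at 0.141 and HERC2 at 0.151. There osa ranked 13, skd 25, kis 61 and kto 63, while ash1, dom, brm and trx ranked 318, 363, 428 and 2023. Nipped-A, at rank 5949, had a profile far from that of Smr.

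Partner genes in the RIP table did not all share the direction of the regulators. Of 30 partners with a row, 17 were lower on average with the Y332F form, near the 49.3% of all RIP genes, with a median log2 difference of -0.16. Limma called 9 of them lower and 5 higher, where 16.7% of all genes were called lower and 13.0% higher. The PBAP subunit e(y)3 had the most negative difference among them, from 7771 ± 2806 (SD, n = 6) to 2987 ± 411 (SD, n = 3), a difference of -1.31. Sin3A, a scaffold of the deacetylase complex that Smr recruits, was at -0.87, the Tip60 subunit E(Pc) at -0.86 and the Polycomb gene ph-d at -0.86. Other genes of the corepressor list went both ways, with CoRest, CtBP and gro at 0.13, 0.44 and 0.03 and H at -0.56. At the other end, pho, a DNA-binding protein of the Polycomb group, stood at 251 ± 87.1 (SD, n = 6) and 525 ± 200.3 (SD, n = 3), a difference of 1.08. The 3 core Mediator genes with a row were split, with MED6 at 0.86, MED31 at 0.75 and MED1 at -0.70.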

How the data were processed

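Total RNA was measured in 12 embryo samples and RIP in 9. Per the labels' protocols, Trizol was used for extraction and a Lexogen CORALL kit for libraries, which were read from both ends on a NovaSeq. The submitters' processing notes name bcl2fastq, HISAT2, featureCounts and DESeq2 without versions; their settings, the genome build and the use of strand are not given in the sources used here, so no coordinates are printed, and genes that overlap or share reads with copies are uncertain. The total RNA file that the authors deposited holds raw counts for genes and transposable element copies. The RIP file that the authors deposited holds a signal for each transcript that was normalized by a method not given, and its depth is unknown. It has 3 further columns without a matching sample, which were left out. For 1 sample of each RIP group the column was matched by its number and by elimination. Counts may include several reads of one molecule.

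The total RNA test was edgeR's (version 4.0.16, R 4.3.3): filterByExpr with a minimum count of 10, TMM factors, and the quasi-likelihood test on all 12 samples with genotype as the factor, adjusted by Benjamini-Hochberg over 10238 features. RIP transcripts were summed per gene, scaled by median ratios (factors 0.598 to 1.66) and fitted with limma 3.58.1 on log2(value + 1), keeping means of 10 or more. The SE of an edgeR log2 fold change is its size divided by the root of its F statistic. The fits were also run on simulated data with the same spread setting for every gene and no marker differences between genotypes. That run does not show how they perform on these libraries. The members, partner lists and tests were chosen with earlier results of these data known. All 10 members are named, with the 2 largest called rises and falls in Top3b26 of each partner list as candidates for naming, and the 5 genes nearest to Smr in each table. RIP partners without such a call were named after their values were seen. Alternatives were DESeq2 1.42.0, other factors, filters, groups, scalings and pseudocounts, a replicate block, a late marker score and each sample left out. Plots were drawn with matplotlib 3.10.9. Gene symbols and spans came from the supplied FlyBase and RefSeq tables, and 99.3% of tested genes had a span.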

Additional observations from a re-analysis of the deposited data

How the results depend on the processing

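The 3 members called in Top3b26 became 1 with total counts in place of TMM, with a mean of at least 50 counts and with the compared groups alone, and 0 with the late marker score or a 2-fold minimum. The 4 called in Y332F became 2 with the compared groups alone and 0 with the late marker score or a 2-fold minimum. With one library left out the counts ran from 0 to 5 for Top3b26, 1 to 5 for Y332F and 0 to 1 for delRGG. Same-numbered replicates did not deviate together in every pair (correlations from -0.65 to 0.62), so they share a number only; the replicate block gave 5 calls in Top3b26, with brm and ash1 added, and 6 in Y332F, with osa (edgeR adjusted p 0.0301) and ash1 added, and moved no other count of members by over 1.5 times, with 6185 calls over all features against 5849. Total counts moved the median of all features in Top3b26 from -0.04 to -0.13. With the late marker score 227 features were called in Top3b26 and 277 in Y332F. No log2 fold change of a called member changed sign under any alternative run; among total RNA values of single members 65 of those not called crossed 0, 50 calls were lost and 14 gained. The median RIP difference stayed from -1.19 to -0.96 with one sample left out and was -0.90 against samples 1 to 3 and -1.38 against samples 4 to 6; it was -1.25 without the 2 samples whose column was matched by number, and -0.90 with a replicate block over samples 1 to 3. Other causes of lost calls were not tested. Dixon's test for a sample far from the others picked out 0 of 29 groups examined, and in a group of 3 samples it can seldom pick one out.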
